A study of Mus musculus with 90 samples.

Results

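The amygdala of resident male mice was compared 30 and 120 min after a meeting with a caged intruder. The libraries were chosen by their labels, and they are 10 of the 90 libraries of the series: 5 animals sampled at 30 min (replicates 1 to 5) and 5 other animals sampled at 120 min (replicates 1, 2, 3, 4 and 6). The residents were C57BL/6J males that had been housed with a C57BL/6J female, which was taken away before the test. A male of the BALB/c strain in a wire mesh cage was placed in the home cage for 5 min, and the resident then rested in the dark for 30 or 120 min. Controls, 5 animals at each time, met the same cage with a paper cup in it. No group carries a transgene or a drug. The labels assign 1 animal to each library, and the replicates are taken as those animals, although the design text also speaks of RNA pooled for the libraries. Ages are not given in the sources used here.

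The design follows how the response to a short social challenge unfolds after it has ended. Activity in a neuron switches on immediate-early genes, which code for transcription factors such as Fos and the Egr proteins and for effectors at the synapse, and their short-lived transcripts fade once the stimulus is over. The stress axis acts more slowly: glucocorticoids released by the adrenal gland enter the brain, bind their receptor in neurons, glia and vessels, and change transcription of target genes. A further program, the unfolded protein response, raises chaperones of the endoplasmic reticulum (ER), the compartment where secreted and membrane proteins are folded.

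A limit of the comparison stands in the names of the deposited columns. All 28 libraries of 30 min in the series carry the tag ISO in the column name, and all 30 of 60 min and all 32 of 120 min carry the tag CERV. The sources used here do not define the tags, and the labels name a single way of killing for all animals. Whatever the tag marks cannot be told apart from the step between 30 and 120 min. The controls carry the same tags at the same times, so the difference between the time changes of intruder animals and controls compares libraries with matching tags, and 120 against 60 min compares libraries of the same tag. The library index also moved with time. The 5 libraries of 30 min have the first index ATT, while at 120 min 4 libraries have CGC and 1, replicate 6, has GAG. Control libraries have ATT (3) and TCC (2) at 30 min and GAG (5) at 120 min. Intruder animals and controls thus match in tag but not in index. With that index as a block in the fit, edgeR called 1 gene. The step from ATT to CGC rests there on controls of 30 min and of 60 min (4 CGC and 1 TCC). It thus passes through that 1 TCC library, and the part of the index in the results was not tested.

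Each of the 10 libraries held 44.26 to 51.03 M reads assigned to genes, and 17277 genes were tested in amygdala. Reads outside annotated genes were 10.8% to 12.0% of all rows at 30 min and 12.3% to 13.5% at 120 min, without overlap (exact permutation p of 0.00794, two-sided, the smallest that 5 against 5 libraries can give, adjusted 0.0635 over 24 quantities). In control libraries of 30 and 120 min that share had means of 12.1% and 11.9%. Levels are given in CPM, counts scaled to library size by trimmed mean of M-values (TMM), which do not correct for gene length, so they are compared between libraries and not between genes. The 10 amygdala markers summed to 414 to 692 CPM at 30 min and 399 to 643 CPM at 120 min. All 11 striatum markers were also present, at 851 to 2285 CPM and 965 to 2895 CPM, and their part in the results was not tested. Their median log2 fold change from 30 to 120 min was 0.27, and -0.38 in controls. Of the 11 hypothalamus markers, 6 had a mean below 1 CPM.

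From 30 to 120 min, 2584 genes changed in the amygdala of intruder animals at an edgeR adjusted p below 0.05, 15% of the genes tested. Of these, 1531 were higher at 120 min (8.86% of the genes tested) and 1053 lower (6.09%). Most changes were small: the median size among called genes was 0.24 on the log2 scale, a 1.18-fold change, and 66 called genes changed by more than 1 on that scale. Libraries of 30 and 120 min did not overlap for 2397 genes, 13.9% of those tested, with 7.65% wholly higher and 6.22% wholly lower at 120 min. Upper-quartile scaling in place of TMM gave 1188 higher and 1519 lower genes, so the balance of directions depends on the scaling, and with it the median of all genes was -0.02 in place of 0.00. Without replicate 1 of 30 min the count was 1644. A test against a fold of 1.2 with glmTreat left 41 genes, 25 higher and 16 lower (0.237%).

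Some immediate-early genes fell. Of 28 listed transcription factors of this class 27 were tested, and 10 were called lower, 0 higher and 17 not, 37.0% of the tested members beside 15% of all genes. Their median log2 fold change was -0.26, and that of all genes tested was 0.00. Without replicate 1 of 120 min the median was -0.42 with 13 called lower, and without any other single library it was -0.31 to -0.22. The 10 were Fos, Junb, Egr2, Nr4a1, Npas4, Ier2, Atf3, Egr4, Fosb and Egr1, with log2 fold changes from -1.48 to -0.49. In 9 of the 27 members, all lower, the libraries of 30 and 120 min did not overlap, beside 6.22% of all genes wholly lower.

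Fos (ENSMUSG00000021250), a subunit of the AP-1 transcription factor and the usual mark of recently active neurons, was at 49.97, 45.9, 53.6, 50.5 and 43.9 CPM in the 5 libraries of 30 min. At 120 min it was at 19.2, 15.9, 19.9, 15.7 and 16.9 CPM. Every library of 30 min stood far above every library of 120 min, and the log2 fold change was -1.48 ± 0.153 (SE, with adjusted p 2.44e-06 by edgeR). Fos at 60 min lay between, at 20.8 to 32.1 CPM. In controls it was at 37.2 ± 1.97 CPM (SD, n = 5) at 30 min and 15.3 ± 2.67 CPM (SD, n = 5) at 120 min.

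Junb (ENSMUSG00000052837), which pairs with Fos in AP-1, was at 68.7, 64.6, 71.7, 73.5 and 62.7 CPM at 30 min. By 120 min it stood at 37.3, 27.9, 29.5, 23.4 and 24.8 CPM, with no overlap, a log2 fold change of -1.26 ± 0.172 (SE, with adjusted p 5.41e-05 by edgeR). Nr4a1 (ENSMUSG00000023034), an orphan nuclear receptor, was at 89.6, 81.4, 90.9, 103.0 and 87.6 CPM at 30 min and at 48.3, 42.1, 53.9, 35.0 and 42.3 CPM at 120 min. The groups were again apart, with a log2 fold change of -1.03 ± 0.156 (SE, with adjusted p 0.000135 by edgeR). Egr1, a zinc finger factor that is high in neurons at rest, fell least of the 10, from 209 to 267 CPM at 30 min to 135 to 183 CPM at 120 min. Fosb and Atf3 overlapped between the times, Fosb through replicate 1 of 120 min, which was at 21.3 CPM while the other 4 were at 11.04 to 14.5 CPM.

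Some genes that act at the synapse or damp the signal were called lower too. Of 30 listed activity effectors 7 were called lower and 2 higher, 30% beside 15% of all genes. The lower calls numbered 11 without replicate 1 of 120 min, and after correction for GC content and length 5 were called lower and 0 higher. Btg2 (ENSMUSG00000020423), an antiproliferative factor that promotes mRNA decay, was at 23.8, 33.5, 30.1, 26.4 and 26.5 CPM at 30 min and at 13.5, 13.2, 12.9, 12.8 and 10.5 CPM at 120 min. It had a log2 fold change of -1.16 ± 0.154 (SE, with adjusted p 4.43e-05 by edgeR), with no overlap. Dusp1, a phosphatase that switches off MAP kinases, fell from 27.1 to 32.0 CPM to 15.4 to 18.9 CPM. Arc, which drives uptake of AMPA receptors, fell from 106 to 150 CPM to 47.4 to 88.7 CPM. The other 4 lower members were Ccn1, Sik1, Gadd45g and Plk3.

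The higher effectors were Inhba and Homer1. Inhba, the activin A subunit that is induced late after synaptic activity, was at 1.31, 0.680, 0.958, 1.41 and 0.833 CPM at 30 min. The libraries of 120 min held 2.51, 1.84, 1.92, 1.85 and 1.89 CPM, above every library of 30 min, with a log2 fold change of 0.95 ± 0.264 (SE, with adjusted p 0.0162 by edgeR). Homer1, a scaffold of metabotropic glutamate receptors, had a log2 fold change of 0.40 (edgeR, adjusted p 0.0302). Its call was lost when any of 6 single libraries was left out and after correction for GC content and length, where the log2 fold change was 0.22.

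**Figure D1:**
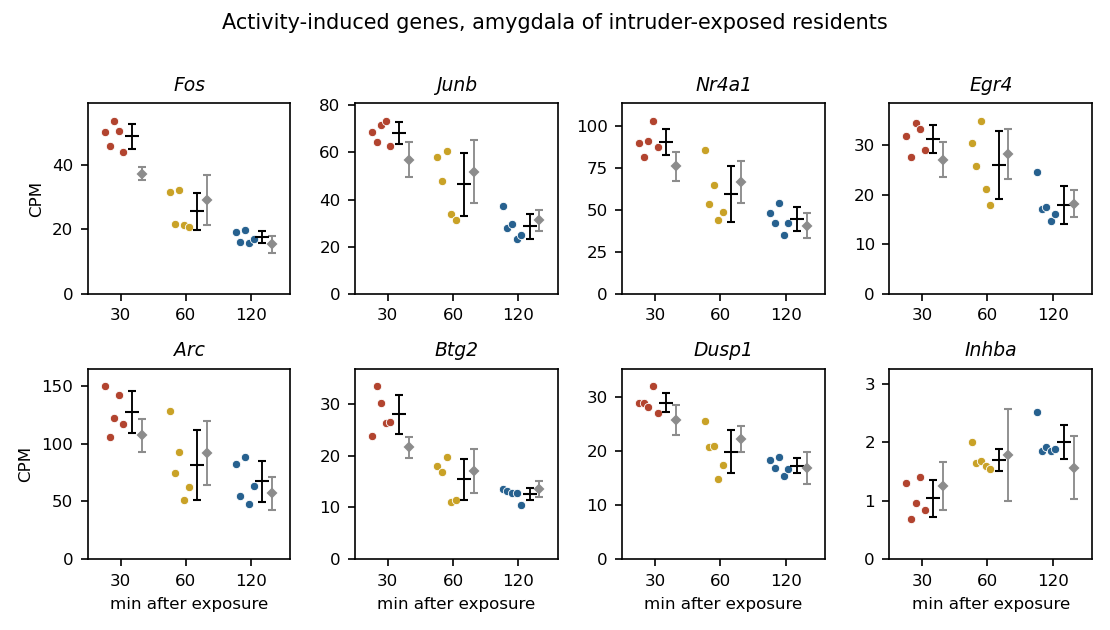
CPM of 8 activity-induced genes in single amygdala libraries of intruder animals (coloured points, 5 at each of 30, 60 and 120 min), with their mean ± SD in black and the mean ± SD of 5 controls as grey diamonds. Fos falls from 43.9 to 53.6 CPM at 30 min to 15.7 to 19.9 CPM at 120 min, and Inhba is the gene shown that is higher at 120 min.

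Promoters are shown because several members were called lower together. The windows run from 250 bases before to 50 bases after the RefSeq start and were taken from the RefSeq table of build GRCm38.p6. They were searched on both strands for TGACGTCA, the cAMP response element bound by CREB, and for TGACG, the shorter core inside it, so each match of the former is also a match of the latter. Of 32851 promoters, 1.79% hold TGACGTCA and 20.8% hold TGACG. The table matched 8 of the 10 lower factors, and all 8 hold TGACG. It matched 21 of the 28 listed factors, of which 16 hold it, so the short motif is not limited to the members that fell. Among the lower effectors, 5 of 7 were matched, 4 of them hold TGACG, and Btg2 and Dusp1 hold the full TGACGTCA. Slices follow, 5′ to 3′ on the strand of the gene, with the matches in capitals (TGACG, or CGTCA where it lies on the other strand, in the first 3, and TGACGTCA in the last 2).
Fos, chr12:85473731-85473858, plus strand: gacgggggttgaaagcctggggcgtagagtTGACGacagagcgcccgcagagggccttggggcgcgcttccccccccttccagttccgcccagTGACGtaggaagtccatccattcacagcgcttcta
Junb, chr8:84978820-84978884, minus strand: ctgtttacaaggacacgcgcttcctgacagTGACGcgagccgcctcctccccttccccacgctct
Nr4a1, chr15:101266596-101266840, plus strand: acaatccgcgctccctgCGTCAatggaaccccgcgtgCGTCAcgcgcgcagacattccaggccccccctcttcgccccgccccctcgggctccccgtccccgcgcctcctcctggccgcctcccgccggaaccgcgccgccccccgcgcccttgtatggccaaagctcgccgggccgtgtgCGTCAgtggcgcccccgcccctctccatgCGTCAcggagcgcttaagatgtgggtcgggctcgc
Btg2, chr1:134079284-134079351, minus strand: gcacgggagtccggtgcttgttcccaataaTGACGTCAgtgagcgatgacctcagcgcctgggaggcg
Dusp1, chr17:26508578-26508645, minus strand: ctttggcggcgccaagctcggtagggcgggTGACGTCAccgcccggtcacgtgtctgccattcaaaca
A match is a run of letters and was not tested as a binding site. In Fos the matches start 129 and 66 bases before the start of transcription, in Btg2 166 and in Dusp1 143.

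Immediate-early genes were called lower after the paper cup too. In controls 25 genes changed from 30 to 120 min (0.145% of those tested), 10 higher and 15 lower, and 6 of the 27 immediate-early factors and 3 of the 30 effectors were among them. The control median of the factors was -0.38, beside -0.26 in intruder animals, or -0.42 there without replicate 1 of 120 min, which turns the order of both medians. Fos in controls had a log2 fold change of -1.28 ± 0.153 (SE, with adjusted p 9.03e-05 by edgeR). Whether the time change differed between intruder animals and controls was tested as an interaction, and 0 of the listed factors and 0 of the effectors were called by edgeR. That test called 0.139% of all genes, so a count of 0 says little about lists of this size. For Fos the difference was -0.19 ± 0.213 (SE, log2) with an adjusted p of 0.714.

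Some glucocorticoid-responsive genes were called higher. Of 29 listed and tested, 12 were called higher, 0 lower and 17 not, 41.4% beside 15% of all genes, with a list median of 0.31. The 12 were Zbtb16, Hif3a, Tsc22d3, Pdk4, Fkbp5, Gjb6, Sult1a1, Mertk, Klf9, Klf15, Fam107a and Nr3c1. In 5 of the 29, all higher at 120 min, the libraries of the times did not overlap, beside 7.65% of all genes wholly higher. The list had 6 calls without replicate 3 of 30 min or replicate 4 of 120 min and 7 without replicate 5 of 30 min or replicate 6 of 120 min, and its median stayed positive without any single library, at 0.25 to 0.38.

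Zbtb16 (ENSMUSG00000066687), a zinc finger repressor, moved most in the list. It was at 20.9, 14.7, 15.7, 12.3 and 8.87 CPM at 30 min and at 36.9, 31.7, 33.6, 35.7 and 34.8 CPM at 120 min. Every library of 120 min stood above the highest of 30 min, with a log2 fold change of 1.253 ± 0.299 (SE, with adjusted p 0.00592 by edgeR). Fkbp5 (ENSMUSG00000024222), a co-chaperone that damps the glucocorticoid receptor and is used as a readout of its activity, was at 64.9, 50.9, 47.2, 48.8 and 49.1 CPM at 30 min. Later, at 120 min, it was at 73.3, 65.3, 67.4, 75.4 and 77.8 CPM. Replicate 1 of 30 min came close to the lowest library of 120 min, yet the groups did not overlap, with a log2 fold change of 0.46 ± 0.112 (SE, with adjusted p 0.00659 by edgeR).

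Tsc22d3, the anti-inflammatory factor also named Gilz, was at 71.5 to 108 CPM at 30 min and at 98.2 to 173 CPM at 120 min. Its groups overlapped through replicate 2 of 120 min, and its log2 fold change was 0.61 ± 0.137 (SE, with adjusted p 0.00384 by edgeR). Gjb6, a connexin of astrocytes, rose from 59.7 to 72.3 CPM to 77.7 to 97.0 CPM without overlap. Sgk1, a kinase induced by the same hormones, was at 47.5 to 82.7 CPM and at 59.6 to 149 CPM and was not called (adjusted p of 0.151). Klf9 lost its call when any of 8 of the 10 single libraries was left out.

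In controls 1 listed gene, Hif3a, was called (log2 fold change 1.204, adjusted p 0.027 by edgeR), beside 0.145% of all genes, and the list median was 0.16. Zbtb16 had a log2 fold change of 1.16 in controls (adjusted p of 0.123) and Fkbp5 one of 0.47 (adjusted p of 0.0805). The interaction test called 0 members of the list, beside 0.139% of all genes, a share at which 0 says little about the list. Between 30 and 60 min in intruder animals the list median was 0.23. Between 60 and 120 min, where both groups carry the same tag, it was 0.06 with 0 members called, beside 0.0695% of all genes.

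Some ER chaperones were among the genes that rose after the intruder. The list of 27 chaperones and heat-shock genes had 12 members called higher and 2 lower, 51.9% of those tested beside 15% of all genes, with a median log2 fold change of 0.21. Among the called members, those with the largest rise were Sdf2l1, Pdia4, Hspa5, Chordc1, Hspa4l, Hsph1 and Manf, with log2 fold changes from 0.64 to 0.35. The lower members were Cirbp, a cold-inducible RNA-binding protein, and Hsf1, the heat-shock transcription factor. The 2 groups did not overlap in 5 members, all higher, beside 7.65% of all genes. Without replicate 3 or replicate 6 of 120 min the list had 7 members called higher and 1 lower.

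Hspa5 (ENSMUSG00000026864), the main chaperone of the ER, was at 359, 333, 385, 384 and 411 CPM at 30 min. At 120 min it was at 545, 412, 602, 493 and 575 CPM, and replicate 2 of 120 min all but touched replicate 5 of 30 min. Its log2 fold change was 0.49 ± 0.102 (SE, with adjusted p 0.00217 by edgeR). Pdia4 (ENSMUSG00000025823), a disulfide isomerase of the ER, was at 44.4, 41.2, 48.8, 48.1 and 48.9 CPM at 30 min and at 78.2, 55.5, 80.5, 63.2 and 73.8 CPM at 120 min. Again replicate 2 was the lowest library of 120 min, and the log2 fold change was 0.60 ± 0.109 (SE, with adjusted p 0.000723 by edgeR). Sdf2l1, a partner of Hspa5, was at 8.97 to 13.3 CPM and at 11.9 to 19.98 CPM, with overlap through the same library. Its log2 fold change was 0.64 ± 0.156 (SE, with adjusted p 0.00708 by edgeR).

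Dnajc3 (ENSMUSG00000022136), which restrains the ER stress kinase PERK, is not on the list and was named by the interaction test. It was at 69.2, 72.0, 72.7, 73.7 and 74.95 CPM at 30 min and at 103.5, 88.1, 101.5, 101.0 and 107.6 CPM at 120 min. The groups were clearly apart, with a log2 fold change of 0.47 ± 0.063 (SE, with adjusted p 4.43e-05 by edgeR). In controls the mean was 82.6 CPM at 30 min and 80.8 CPM at 120 min, and the difference of the time changes was 0.50 ± 0.089 (SE, log2, with adjusted p 0.0436 by edgeR). This call and that of Chordc1, a member of the list, are lost wherever the interaction test has 0 calls: with no filter on low counts, with the index block, after the GC and length correction and without any of 11 of the 20 single libraries.

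In controls the chaperone list had a median of -0.08 with 0 of 27 members called, beside 0.145% of all genes. The median of the differences between intruder animals and controls was 0.30, with 1 member called by edgeR, Chordc1 (0.52, adjusted p of 0.0485), beside 0.139% of all genes. For Hspa5 the difference was 0.56 with an adjusted p of 0.0921, for Pdia4 0.70 with 0.0587 and for Sdf2l1 0.76 with 0.143. The 30 min levels of the controls stand above those of the intruder animals in these genes, with means of 432.5 and 374.2 CPM for Hspa5 and 56.8 and 46.3 CPM for Pdia4. With the library index as a block the log2 fold change of Hspa5 turned to -0.13, that of Pdia4 to -0.05 and that of Sdf2l1 to -0.33, while that of Dnajc3 was 0.08. In that block the step from ATT to CGC passes through 1 TCC control library of 60 min.

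The ER stress response element, written as CCAAT, then 9 bases of any kind, then CCACG, is the motif through which ATF6 and NF-Y raise ER chaperones. It was searched on both strands of the same windows and occurs in 0.119% of the 32851 promoters. The table matched 21 of the 27 listed genes, and 3 of them hold it: Hspa5, Hsp90b1 and Creld2. Of the 12 called higher, 10 were matched and 2 hold it. The promoter of Dnajc3 holds it too, as does that of Canx, a lectin chaperone of the ER that was looked up after its values were seen. The slices show these sites in capitals, 5′ to 3′ on the strand of the gene in build GRCm38.p6. In Hsp90b1 the second site lies on the other strand.
Hspa5, chr2:34771995-34772073, plus strand: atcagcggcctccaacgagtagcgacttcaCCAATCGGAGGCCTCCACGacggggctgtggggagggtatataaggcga
Hsp90b1, chr10:86705503-86705686, minus strand: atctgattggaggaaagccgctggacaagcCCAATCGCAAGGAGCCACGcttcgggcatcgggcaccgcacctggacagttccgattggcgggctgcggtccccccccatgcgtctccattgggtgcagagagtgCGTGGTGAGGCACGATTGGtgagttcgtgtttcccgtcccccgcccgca
Dnajc3, chr14:118937797-118937875, plus strand: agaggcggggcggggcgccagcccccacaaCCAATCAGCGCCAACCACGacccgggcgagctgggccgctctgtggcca
Canx, chr11:50325770-50325848, minus strand: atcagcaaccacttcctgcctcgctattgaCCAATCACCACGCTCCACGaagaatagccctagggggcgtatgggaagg
The promoters of Pdia4 and Sdf2l1 hold no such run of letters in this window. Hsp90b1, the ER member of the Hsp90 family, rose from 352 to 407 CPM to 379 to 505 CPM with overlap, a log2 fold change of 0.27 (edgeR, adjusted p 0.0124). Canx rose from 381 to 401 CPM to 443 to 488 CPM with no overlap, a log2 fold change of 0.28 ± 0.038 (SE, with adjusted p 6.33e-05 by edgeR). Creld2 was at 17.1 to 19.3 CPM and at 16.4 to 25.6 CPM and was not called (adjusted p of 0.125).

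**Figure D2:**
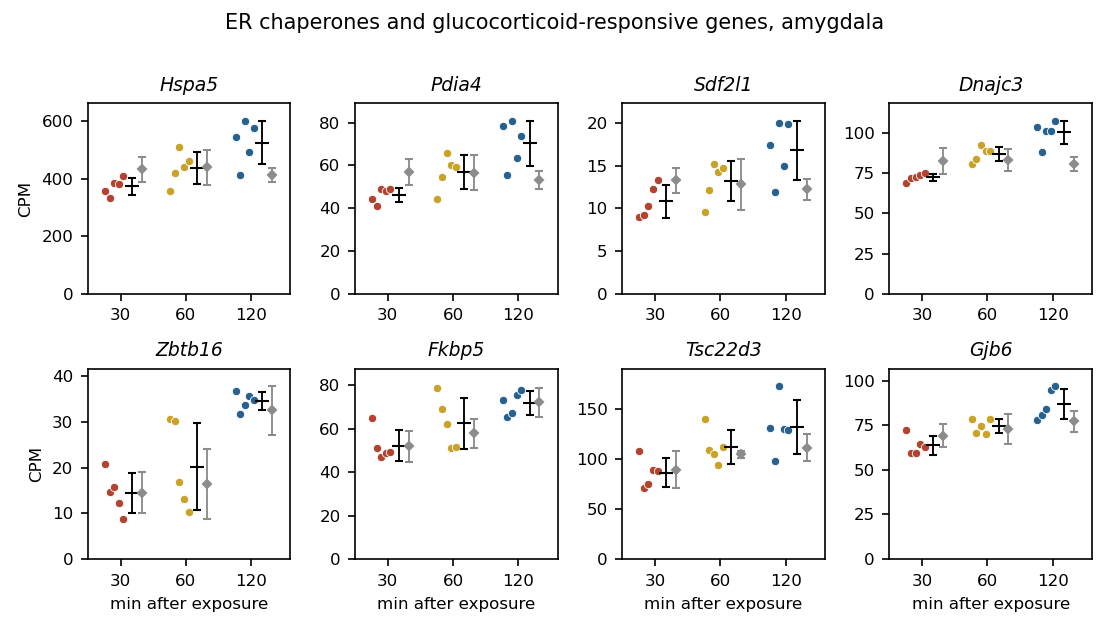
CPM of 4 ER chaperone genes (top) and 4 glucocorticoid-responsive genes (bottom) in amygdala. Points are intruder libraries at 30, 60 and 120 min, black marks their mean ± SD, and grey diamonds the mean ± SD of controls. For Hspa5 and Pdia4 the control means at 30 and 120 min lie between the intruder means of those times, whereas the control means of Zbtb16 were 14.6 and 32.5 CPM and those of Fkbp5 52.0 and 72.1 CPM, neither called in controls.

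Most endothelial markers of blood vessels fell. Of 13 such markers 10 were called lower and 0 higher, 76.9% of the list beside 15% of all genes, and all 13 had a negative log2 fold change, with a median of -0.68. The summed level was 331 to 390 CPM at 30 min and 204 to 287 CPM at 120 min, with 0 markers at 0. In bulk tissue, fewer vessel cells and less RNA per vessel cell cannot be told apart. The mean log2 score of the list was 4.58 at 30 min and 3.99 at 120 min, with no overlap (exact permutation p of 0.00794, adjusted 0.0635).

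Cldn5 (ENSMUSG00000041378), a tight-junction protein of the blood-brain barrier, was at 23.6, 25.2, 26.4, 31.6 and 28.2 CPM at 30 min. By 120 min it had 12.9, 14.3, 13.9, 11.1 and 18.9 CPM, all below 30 min, with a log2 fold change of -0.93 ± 0.190 (SE, with adjusted p 0.00192 by edgeR). Slco1a4, an organic anion transporter of the barrier, was at 58.7 to 62.7 CPM and at 28.6 to 41.2 CPM (adjusted p of 0.000521). Ly6c1, which has close paralogs that can share its reads, was at 25.6 to 31.6 CPM and at 14.9 to 18.3 CPM (adjusted p of 0.000381). Rgs5 (ENSMUSG00000026678), a signalling regulator of pericytes, was at 95.9, 92.3, 98.9, 96.6 and 96.7 CPM and then at 58.3, 60.2, 60.9, 59.4 and 60.0 CPM. Its libraries were very close within each time, and its log2 fold change was -0.69 ± 0.116 (SE, with adjusted p 0.000391 by edgeR). Rgs5 was the 1 mural marker of 11 that was called, 9.09% beside 15% of all genes. The mural median was -0.14, with -0.28 without replicate 6 of 120 min and -0.09 without replicate 1 or 3. Without replicate 1 of 30 min or replicate 4 of 120 min 2 mural markers were called.

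For the endothelial markers the larger step came after 60 min: the endothelial median was -0.04 from 30 to 60 min and -0.53 from 60 to 120 min. Between 60 and 120 min, both tagged alike, 12 genes were called in intruder animals (0.0695% of those tested), 1 higher and 11 lower, and 3 of them were endothelial markers and 1 was Rgs5. Rgs5 was at 94.6 to 116.5 CPM at 60 min, above every library of 30 min in 4 of 5 libraries (log2 fold change -0.84 from 60 to 120 min, adjusted p 0.000768 by edgeR). In controls the endothelial median was -0.31 with 0 called, and the interaction test called 0 of the 13. Over all genes these tests called 0.145% and 0.139%, so 0 says little about 13 markers. The control library means of Rgs5 were 99.6 CPM at 30 min and 85.1 CPM at 120 min. In hypothalamus of the intruder animals 12 of the 13 endothelial markers and 4 of the 11 mural markers were called, beside 1.93% of all genes tested there, with medians of -0.57 and -0.34. In their frontal cortex 4 and 6 were called, beside 17.7% of all genes, with medians of -0.17 and -0.28. The difference between amygdala and frontal cortex was called for 9 of the 13 and 1 of the 11, beside 19.9% of all genes.

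Most astrocyte markers moved the other way, with 7 of 11 called higher, 0 lower and 4 not, 63.6% beside 15% of all genes. The median was 0.23, and 2 markers had negative log2 fold changes. Without replicate 4 of 120 min 2 were called and without replicate 2 of 30 min 4. After correction for GC content and length 2 were called, with a median of 0.17. They include Gjb6, which is also on the glucocorticoid list, and Slc1a2, the main glutamate transporter, which rose from 2040 to 2213 CPM to 2503 to 2876 CPM without overlap. The summed astrocyte level was 4904 to 5122 CPM at 30 min and 5663 to 6842 CPM at 120 min. Its part in the calls of the glucocorticoid list was not tested. The oligodendrocyte list had a like median of 0.24 with 0 of 12 markers called (0.11 without replicate 3 of 120 min and 0.35 without replicate 1). The list of oligodendrocyte precursors had 0.24 with 2 of 9 called higher, 22.2% beside 15% of all genes. That count was 1 without replicate 4 of 120 min or after the GC and length correction, and 3 without replicate 1 or 3 of 120 min. In the microglia list 0 of 11 markers were called, with a median of 0.01, and in the neuron list 1 of 12, with a median of 0.05.

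Some genes of excitability were called higher. Of 22 glutamate receptor genes 6 were called higher and 1 lower, 31.8% beside 15% of all genes, and of 36 potassium channel genes 8 higher and 0 lower, 22.2%. The receptor calls numbered 2 to 5 when 1 library was left out. After correction for GC content and length 2 receptor genes were called, with a list median of -0.01, and 3 channel genes, with 0.13. Grin2b (ENSMUSG00000030209), the NMDA receptor subunit that prevails early in development, was at 9.29, 11.2, 10.2, 12.0 and 10.3 CPM at 30 min. At 120 min it was at 32.9, 28.7, 15.5, 36.4 and 21.9 CPM, much more scattered and above every library of 30 min. Its log2 fold change was 1.35 ± 0.30 (SE, with adjusted p 0.00348 by edgeR). Grin2a, the subunit that prevails in the adult brain, was at 6.07, 8.65, 7.44, 9.20 and 7.09 CPM at 30 min. It was at 23.3, 19.0, 11.2, 13.9 and 16.9 CPM at 120 min, with a log2 fold change of 1.13 ± 0.213 (SE, with adjusted p 0.000991 by edgeR).

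Replicate 3 was the lowest library of 120 min for both subunits. Grin1, the subunit shared by all NMDA receptors, went down slightly, with a log2 fold change of -0.19 (edgeR, adjusted p 0.0484), and lost its call without any of 8 of the 10 libraries. Kcna3, a voltage-gated potassium channel, was at 2.42 to 4.26 CPM and at 4.30 to 7.39 CPM, just without overlap (log2 fold change 0.94, adjusted p of 0.00165). Kcnma1, the large-conductance calcium-activated channel, was at 27.9 to 36.6 CPM and at 40.1 to 66.5 CPM (0.70, adjusted p of 0.00652). Kcnq3, which carries the M current, had a log2 fold change of 0.74. Oprm1, the mu opioid receptor, and Sst, the peptide somatostatin, were the 2 called genes among 47 neuropeptides and receptors, 4.26% beside 15% of all genes, at 0.72 and -0.27. In that list 0 were called without replicate 1 of 30 min and 0 after the GC and length correction. In controls 0 of the glutamate receptor or potassium channel genes were called, and the interaction called 0 of them. With 0.145% and 0.139% of all genes called in these tests, 0 says little about the 2 lists.

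**Figure D3:**
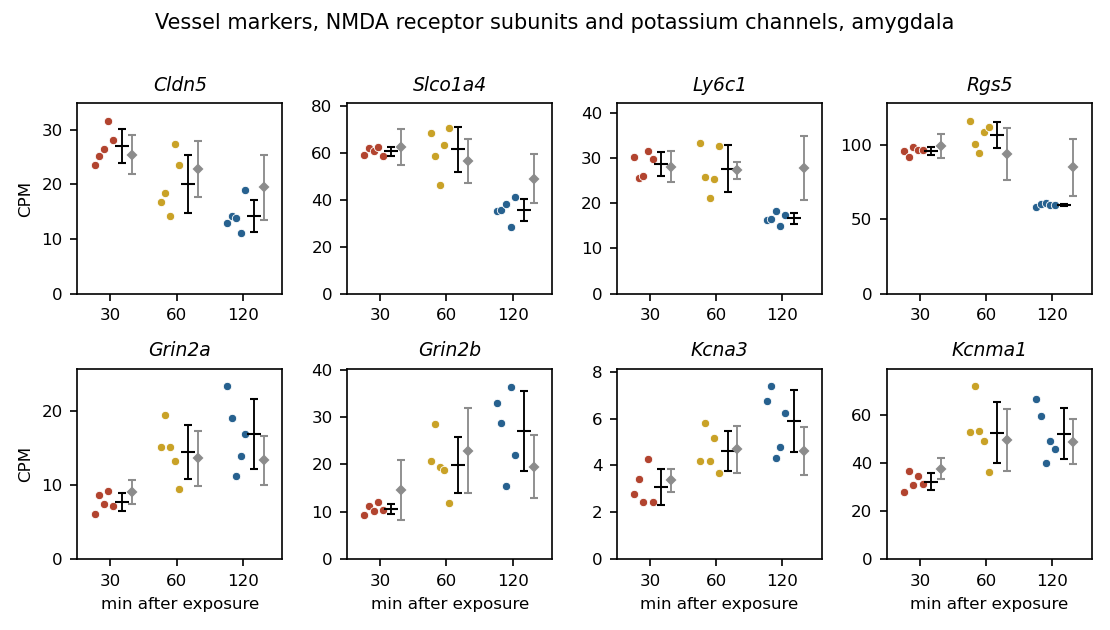
CPM of vessel markers (Cldn5, Slco1a4, Ly6c1 and Rgs5) and of receptor and channel genes (Grin2a, Grin2b, Kcna3 and Kcnma1) in amygdala, with intruder libraries as points, their mean ± SD in black and the mean ± SD of controls as grey diamonds. Rgs5 and Slco1a4 drop between 60 and 120 min, and the receptor genes are scattered at 60 and 120 min.

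About as many regulators of mRNA and chromatin were called higher as were not called, each by a little. Of 31 genes for mRNA decay, translation control and microRNA action 16 were called higher and 0 lower (51.6% beside 15% of all genes, median 0.16), and of 41 chromatin regulators 21 higher and 0 lower (51.2%, median 0.22). The mRNA regulators had 10 calls without replicate 3 of 30 min or replicate 6 of 120 min and 9 without replicate 5 of 30 min, where the chromatin regulators had 13 higher and 1 lower. In controls the medians were 0.02 and 0.08 with 0 called, beside 0.145% of all genes. The interaction called 3 of the 31 mRNA regulators and 0 of the 41 chromatin regulators, beside 0.139% of all genes. Tnrc6b, a scaffold of microRNA silencing, rose from 79.0 to 91.0 CPM to 114 to 132 CPM without overlap, with a log2 fold change of 0.51 ± 0.074 (SE, with adjusted p 8.22e-05 by edgeR). Crebbp, the histone acetyltransferase that works with CREB, rose from 32.9 to 44.4 CPM to 53.3 to 64.8 CPM (0.49, adjusted p of 0.00135). Elavl1, which stabilizes mRNAs with AU-rich elements, rose from 83.0 to 86.7 CPM to 96.7 to 104.5 CPM (0.24, adjusted p of 4.38e-05). Nufip2, a partner of the fragile X protein, rose from 36.4 to 41.9 CPM to 49.3 to 59.0 CPM (0.45, adjusted p of 4.38e-05).

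Some genes for ribosomal proteins and the proteasome were called lower, by small amounts. All 78 tested cytosolic ribosomal protein genes had a negative log2 fold change, with a median of -0.17, and 32 were called lower, 41.0% beside 15% of all genes. That count was 12 without replicate 1 of 30 min and 21, 17 and 20 without replicates 1, 2 and 6 of 120 min. Such genes have pseudogenes that can share their reads. Of the nuclear oxidative phosphorylation genes, 5 of 37 in complex I and 4 of 16 in complex V, the ATP synthase, were called lower, 13.5% and 25.0% of these lists, with medians of -0.14 and -0.11. Of all genes 6.09% were called lower and 15% in either direction. After correction for GC content and length the counts were 3 and 1 and both medians -0.04. In complexes II and III 0 of 14 were called and in complex IV 0 of 11, with medians of -0.10 and -0.16. Proteasome genes were called lower in 10 of 31 (32.3%, median -0.11), in 4 without replicate 1 of 30 min, in 6 without replicate 5 of 30 min and in 4 after the correction. The complex I count was 3 without replicate 1 of 30 min and 10 without replicate 3 of 120 min. Of 12 tested mitochondrially encoded genes 0 were called.

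The direction of change went with the length and base composition of a gene. The called genes that rose had a median longest transcript of 5866 bases and 44.4% GC, those that fell 2265 bases and 55.2% GC, and all tested genes with a known length 3223 bases and 49.8% GC. With the genes put in 4 bins of equal size by length, 24.2% were called higher and 1.43% lower in the bin of the longest, and 1.5% and 10.6% in that of the shortest. After correction for GC content and length 905 genes (5.24%) were called, 483 higher and 422 lower, and 628 of these were also called without it. The chromatin regulators then had 3 of 41 called and a median of 0.03, the mRNA regulators 4 of 31 and 0.02, and the ribosomal genes 9 lower and 1 higher of 78 with a median of -0.06. The immediate-early factors had 9 calls (median -0.27), the glucocorticoid list 9 (0.33), the chaperones 9 (0.24) and the endothelial markers 8 (-0.67).

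**Figure D4:**
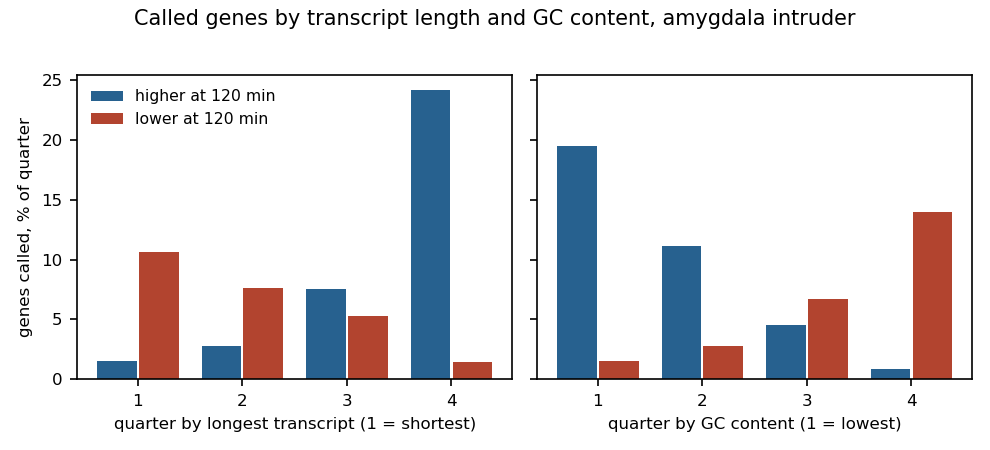
Share of tested genes called higher (blue) or lower (red) at 120 min in the amygdala of intruder animals, in 4 equal bins of genes by longest transcript (left) and GC content (right). The share called higher reaches 24.2% in the bin of the longest transcripts, and the share called lower reaches 14.0% in the bin with the highest GC content.

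Among the 10 rising genes with the smallest adjusted p were Proser1, Zhx3, Taok1, Lrrc58, Rbm25, Sfpq and Tlr7 beside Elavl1, Nufip2 and the gene model Gm22123. Proser1 (ENSMUSG00000049504), which binds the TET2 and OGT enzymes, was at 13.1, 13.9, 14.1, 15.9 and 13.7 CPM at 30 min and at 23.5, 24.1, 23.4, 22.6 and 22.2 CPM at 120 min. Its libraries at 120 min lay close together, and its log2 fold change was 0.71 ± 0.070 (SE, with adjusted p 1.57e-06 by edgeR). Rbm25, a splicing regulator, rose from 71.5 to 84.3 CPM to 117.6 to 129.1 CPM (0.63, adjusted p of 1.9e-05), and Sfpq, a nuclear RNA-binding protein of paraspeckles, from 145 to 168 CPM to 192 to 207 CPM (0.40, adjusted p of 2.66e-05). Tlr7, a receptor for single-stranded RNA in microglia, rose from 2.73 to 3.53 CPM to 4.33 to 6.21 CPM (0.78, adjusted p of 2.88e-05). Zhx3, a zinc finger and homeobox repressor, rose from 63.2 to 76.4 CPM to 92.2 to 99.3 CPM and was the 1 gene called with the index block (0.76, adjusted p 0.0201 by edgeR).

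Besides the activity genes, the 10 falling genes with the smallest adjusted p held 1700016P03Rik, Ubxn11, Csf2ra, Slc40a1 and Zfp513. The gene model 1700016P03Rik fell from 9.97 to 13.7 CPM to 3.45 to 5.93 CPM (log2 fold change -1.26, adjusted p of 6.33e-05) and fell in controls too (-1.14, adjusted p of 0.00363). Slc40a1, the iron exporter ferroportin, fell from 10.4 to 11.5 CPM to 5.84 to 7.78 CPM (-0.61, adjusted p of 0.000116). Csf2ra, a receptor chain for the cytokine GM-CSF, fell from 32.1 to 35.7 CPM to 23.9 to 29.5 CPM (-0.46, adjusted p of 9.64e-05). Tnfsf10, the death ligand TRAIL, was among the 5 largest falls, from 1.55 to 2.87 CPM to 0.750 to 1.23 CPM (-1.19, adjusted p of 0.0114).

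The 5 largest rises among called genes of at least 1 CPM were Cdh1, Gm12840, Car13, Slc47a1 and C3. C3, a complement component, was at 0.394 to 0.771 CPM at 30 min and at 0.365 to 0.849 CPM in 4 libraries of 120 min, with 6.49 CPM in replicate 4. Without that library its log2 fold change was 0.16 and its edgeR adjusted p 0.781. Cdh1, an epithelial cadherin, was at 0.592 to 2.44 CPM at 30 min and at 2.66, 3.73, 1.42, 5.33 and 8.29 CPM at 120 min. Car13 and Slc47a1 were also highest in replicate 6 of 120 min, at 8.36 and 15.05 CPM, and without it Cdh1, Car13 and Slc47a1 were not called (adjusted p of 0.177, 0.218 and 0.273).

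Of 8 markers of meninges and fibroblasts 1, Col1a2, was called higher, 12.5% beside 15% of all genes, and all 8 had positive log2 fold changes. The count was 0 without any of 6 of the 10 single libraries, with limma voom and after the GC and length correction, and 5 without replicate 3 of 120 min. The list summed to 102 to 154 CPM at 30 min and 96.0 to 385 CPM at 120 min. Col1a2 was at 13.4 to 20.9 CPM at 30 min and at 23.8, 32.1, 14.7, 39.95 and 53.0 CPM at 120 min, with replicate 6 the highest and replicate 3 the lowest, as in Cdh1. The part of meninges in the dissections in these rises was not tested. The gene model Gm12840 did not overlap between the times, at 1.17 to 1.74 CPM and at 1.78 to 5.49 CPM (log2 fold change 1.40, adjusted p of 0.000521).

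The difference between the time change after the intruder and after the paper cup was called by edgeR for 24 genes (0.139% of those tested), 19 more positive and 5 more negative in intruder animals, with 2404 genes at an unadjusted p below 0.05. Besides Dnajc3, the leading genes were Nufip2 (0.45), Uba6 (0.41), Gm7117 (-2.72) and Mep1a (-1.89, log2), with adjusted p of 0.0436 to 0.0451 by edgeR. Nufip2 in controls had means of 42.0 and 41.7 CPM at the 2 times. Uba6, a ubiquitin-activating enzyme, was at 25.2 to 27.7 CPM and 31.7 to 37.2 CPM after the intruder and at means of 28.3 and 27.2 CPM in controls. Gm7117 and Mep1a were below 0.40 CPM in every library of the intruder groups and rest on few reads. The count ranged from 0 to 56 when 1 library was left out and was 0 after correction for GC content and length. It was 56 without control replicate 1 of 30 min, 31 without intruder replicate 2 of 120 min and 9 or fewer without any other single library.

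Frontal cortex was compared over the same time. Libraries of the same condition, time and replicate number were taken as the same animal across regions, which was not checked. The time change differed between amygdala and frontal cortex for 3393 genes (19.9% of 17074 tested), 1776 more positive in amygdala and 1617 more negative, with the animal as a block and 10 animals. Without the 30 min animal 1 the count was 1940 and without the 120 min animal 2 it was 2129. The genes with the smallest adjusted p were Prex2, Nbeal1, Rbm25, Proser1 and S1pr1. Proser1 had a log2 fold change of 0.71 in amygdala and -0.92 in frontal cortex, a difference of 1.62 ± 0.106 (SE, with adjusted p 2.97e-05 by edgeR). S1pr1, a sphingosine phosphate receptor of astrocytes and vessels, had 0.41 and -0.69, and Prex2, an exchange factor for Rac, 0.47 and -0.52.

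Of the 1531 genes that rose in amygdala, 1525 were tested in frontal cortex, where 3021 genes were called in all (17.7% of those tested there), and 58 were called higher and 327 lower. Of the 1053 that fell, 1051 were tested there, with 73 called lower and 146 higher. The trend with length and base composition was turned around in frontal cortex: the median log2 fold change was 0.06 in the bin of the shortest transcripts and -0.08 in that of the longest, beside -0.10 and 0.12 in amygdala. It was -0.06 in the bin of the lowest GC content and 0.06 in that of the highest. No correction for GC or length was run on the difference between these regions. The list medians went apart for chromatin regulators (0.22 in amygdala and -0.19 in frontal cortex, 30 of 41 differences called), ribosomal proteins (-0.17 and 0.11, 51 of 78) and complex I (-0.14 and 0.15, 25 of 37). Over all genes 19.9% of the differences were called. Grin2b differed by 2.06 on the log2 scale (edgeR, adjusted p 0.00158), with -0.85 in frontal cortex. The immediate-early factors had medians of -0.26 in both regions and 0 of 27 differences called. The chaperones had 0.21 and 0.27 with 5 of 27 called, close to the share over all genes.

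In hypothalamus 341 genes were called in intruder animals (1.93% of those tested). Of the genes that rose in amygdala 109 were called higher there and 0 lower, and of those that fell 101 were called lower and 0 higher. The test of the difference between amygdala and hypothalamus gave 0 genes by edgeR (0.0%), although 2966 had an unadjusted p below 0.05, and DESeq2 gave 254. Without the 120 min animal 3 edgeR called 13. Fos in hypothalamus had a log2 fold change of -1.74, Pdia4 0.41, Cldn5 -0.56 and Tsc22d3 0.60, each called there. Ribosomal genes had a median of 0.05 in hypothalamus and 0 called.

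**Figure D5:**
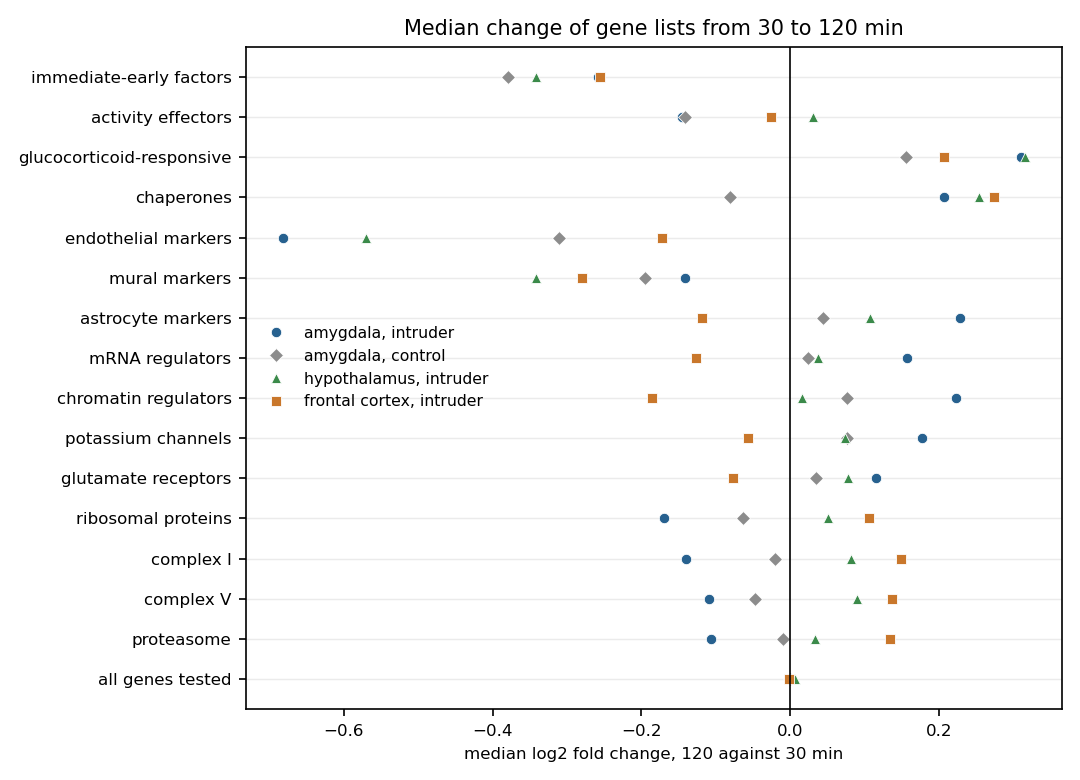
Median log2 fold change from 30 to 120 min of 15 gene lists and of all genes tested, in amygdala of intruder animals (blue circles), amygdala of controls (grey diamonds), hypothalamus of intruder animals (green triangles) and frontal cortex of intruder animals (orange squares). The immediate-early, glucocorticoid and endothelial medians have the same sign in all 4, the chaperone median is negative in controls at -0.08, and the chromatin and ribosomal medians have opposite signs in amygdala and frontal cortex of intruder animals. The endothelial median is -0.68 in amygdala and -0.17 in frontal cortex of intruder animals.

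Libraries of 60 min placed the changes in time. Between 30 and 60 min 1281 genes were called in intruder animals (7.41% of those tested), 814 higher and 467 lower. The genes that rose by 120 min had a median of 0.19 from 30 to 60 min and 0.07 from 60 to 120 min, and those that fell had -0.15 and -0.08. These contrasts share libraries and the former crosses the change of tag. Proser1 was at a mean of 22.7 CPM at 60 min and Tnrc6b at 117 CPM, close to their levels of 120 min. Zbtb16 was at 10.4 to 30.6 CPM at 60 min, below every library of 120 min. Hspa5 had a mean of 437.5 CPM at 60 min (358 to 509 CPM), between the means of 374.2 CPM at 30 min and 525.5 CPM at 120 min, and the chaperone list had medians of 0.05 up to 60 min and 0.20 after it.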

How the data were processed

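RNA from dissected amygdala was made into strand-specific poly(A) libraries and read single-end, per the labels' protocols. The authors deposited raw read counts for 37991 Ensembl gene identifiers and 90 libraries, beside 5 rows that name no gene and were left out. The submitters' processing notes name CASAVA 1.8.2, TopHat2 2.0.8, HTSeq 0.6.1, edgeR 3.2.4, R 3.0.0 and build NCBIM37, without their roles. Symbols came from Gencode M21 for 32919 identifiers. No gene coordinates of NCBIM37 are printed, and promoter sequences and their coordinates are RefSeq's in build GRCm38.p6.

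From the deposited counts, the 30 amygdala libraries were fitted together with edgeR 4.0.16 (filterByExpr, TMM scaling, quasi-likelihood test, 6 groups) under R 4.3.3, with p-values adjusted by Benjamini-Hochberg over all genes tested and called below 0.05. Time changes in 2 regions were compared in a fit with the animal as a block, taken from condition, time and replicate number. Read shares and marker scores, the mean log2(CPM + 1), were compared by exact two-sided permutation tests. The fits were tested on simulated data. Alternatives used DESeq2 1.42.0, limma 3.58.1, other scalings, filters and sample sets, blocks, a GC and length correction, and left-out libraries.

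The text names the 10 called genes in each direction with the smallest adjusted p, the 5 largest changes in each direction among called genes with a mean of at least 1 CPM, the 5 leading genes of each other test, and members of 22 pathway lists and 17 marker lists. The members and lists were chosen with earlier results of these data known. Reads carry no molecular identifiers, so they are not independent molecules. Same-numbered animals of 30 and 120 min are different animals.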

Additional observations from a re-analysis of the deposited data

Results flagged for a closer look

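Single libraries stood apart from the other 4 of their group in 10 of 220 tests, where chance alone marks about 1 in 20 groups. At 30 min these were replicate 5 for the share of reads outside genes (10.8%, the others 11.7% to 12.0%) and for Nbeal1 (31.8 CPM, the others 34.9 to 36.1), replicate 3 for Slc40a1 (11.5 CPM, the others 10.4 to 10.7) and replicate 1 for Fkbp5 (64.9 CPM, the others 47.2 to 50.9). At 120 min they were replicate 6 for Btg2 (10.5 CPM, the others 12.8 to 13.5), replicate 3 for Csf2ra (29.5 CPM, the others 23.9 to 24.5) and Npas4 (17.2 CPM, the others 10.3 to 11.9), replicate 4 for C3 (6.49 CPM, the others 0.365 to 0.849) and Sik1 (14.9 CPM, the others 19.1 to 20.5), and replicate 1 for Inhba (2.51 CPM, the others 1.84 to 1.92).

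The time change differed between intruder animals and controls for 24 genes by edgeR's interaction test. The leading ones, as log2 differences of intruder minus control, were Dnajc3 (0.50), Nufip2 (0.45), Uba6 (0.41), Gm7117 (-2.72) and Mep1a (-1.89).

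The time change differed between amygdala and frontal cortex for 3393 genes. The leading ones, as log2 differences of amygdala minus frontal cortex, were Proser1 (1.62), Rbm25 (1.15), S1pr1 (1.06), Prex2 (0.98) and Nbeal1 (0.94).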

How the results depend on the processing

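With the first library index as a block 1 gene was called from 30 to 120 min in intruder animals, 0 in controls and 0 in the interaction, and of 86 genes followed 75 kept their sign and 11 turned: Cdh1 (-0.18), Car13 (-0.47), Slc47a1 (-1.10), Cirbp (0.21), Creld2 (-0.15), Hsp90b1 (-0.12), Hspa5 (-0.13), Manf (-0.16), Pdia4 (-0.051), Plk3 (0.0078) and Sdf2l1 (-0.33). Index and time go together in these libraries, and the cause was not tested. The step from ATT to CGC in that block passes through 1 TCC control library of 60 min. The index block was not run on the differences between regions. Over the alternatives other than the index block and glmTreat, the 86 genes gave 1628 values, of which 1491 kept direction and call, 135 lost the call, 2 gained it and 0 turned.

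The 2584 genes called from 30 to 120 min in intruder animals became 905 after the GC and length correction, 41 with glmTreat above a fold of 1.2, 12 for 120 against 60 min and 1644 to 2424 when 1 library was left out. In controls the count of 25 became 93 with DESeq2, 16 with no filter on low counts, 61 after the GC and length correction, 10 with the 2 groups alone and 8 to 44 when 1 library was left out. For the interaction the count of 24 became 199 with DESeq2, 5 with limma voom, 6 with upper-quartile scaling, 0 with no filter, 0 after the GC and length correction, 8 with the 20 libraries of 30 and 120 min and 0 to 56 when 1 library was left out. The difference from hypothalamus gave 254 genes with DESeq2 and 0 to 13 without 1 animal, and that from frontal cortex 1940 to 3850 without 1 animal (2129 without the 120 min animal 2). Of the 24 read shares and scores, 0 to 4 passed without 1 library. The causes were not tested.

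A replicate block on the replicate number gave 2326 genes for intruder animals, 29 for controls and 72 for the interaction. Same-numbered libraries correlated at 0.08, 0.26, -0.32 and -0.33, so the numbers do not pair these animals. Without the block for the animal, the difference from frontal cortex gave 3866 genes and that from hypothalamus 0. Genes below 1 CPM rest on few reads at this depth.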
